A study of Mus musculus with 15 samples.

Results

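The genes described here are 10 regulators and components of the actin cytoskeleton of the podocyte: Synpo, Actn4, Inf2, Myh9, Myo1e, Anln, Arhgap24, Arhgdia, Nck1 and Nck2. They were chosen by name, as a group of related function, from the 46078 genes of the deposited count table, and all 10 had enough reads to be tested. The libraries came from the podocyte fraction of male C57BL/6J mice, that is, from cells pulled out of digested kidney cortex with magnetic beads and antibodies against nephrin, a surface protein of the podocyte. Young mice were 4 months old and were not injected. Aged mice were 21 months old at the start and received either aPD1ab, a rat antibody that blocks mouse PD-1 (clone RMP1-14), or the isotype control IgG2a (clone 2A3), both once a week at 12 mg/kg into the peritoneum for 8 weeks. The titles of the aPD1ab samples give 47 days in place of 8 weeks. Both aged groups therefore share age and injections, and the young mice differ from them in age and in having no injection, which cannot be told apart. The labels list 5 mice in each group, and 13 columns of the table could be tied to a group, through the numbers that a published plot of these libraries prints beside its points: 5 young, 4 aged IgG2a and 4 aged aPD1ab, each 1 mouse.

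Podocytes wrap the glomerular capillary with interdigitating foot processes, and each foot process is held in shape by a parallel bundle of actin filaments that is anchored to the slit diaphragm on its sides and to the basement membrane at its base. Synaptopodin (Synpo) and α-actinin-4 (Actn4) bundle and stabilize these filaments, the formin Inf2 assembles and severs them, and the motors nonmuscle myosin IIA (Myh9) and myosin 1e (Myo1e) pull on them or tether them to the membrane. Small GTPases switch the network between states, with Arhgap24 turning off Rac1, and Arhgdia holding inactive GTPases in the cytosol. Nck1 and Nck2 are paired adaptors that link phosphorylated nephrin to actin assembly, and anillin (Anln) is a scaffold that binds actin and myosin and is best known from the cleavage furrow of dividing cells. Inherited variants of several of these genes cause nephrotic syndrome or focal segmental glomerulosclerosis in people.

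Libraries are named below by their group and a letter, A to E, in the order of the columns of the table. They held 19912969 to 32717100 counts, so that the floor of 3 counts lay between 0.0843 and 0.207 CPM (counts per 1000000 counts, with library size scaled by the TMM method). Each member lay far above this floor, the lowest being Anln with 59 counts in 1 library. IgG2a library A stood apart from its group: on the first principal component (40.7% of the variance) it lay at -16.4, against 71.6 to 84.2 for the other 3 aged IgG2a libraries and -41.4 to -24.6 for the young. The lowest value, -64.9, belonged to aPD1ab library B. Results that rest on IgG2a library A are given below with and without it. Markers of several other cell types were present. Summed over 12 marker genes, podocyte markers reached 989 to 1504 CPM in young, 572 to 753 in aged IgG2a and 345 to 879 in aged aPD1ab libraries. Proximal tubule markers (12 genes) reached 10030 to 15190, 1388 to 7325 and 6774 to 21010 CPM in the same order, with IgG2a library A the highest of its group and aPD1ab library B the highest of all. Macrophage markers (9 genes) reached 1952 to 3600, 3158 to 9360 and 2373 to 5515 CPM, with IgG2a library A the lowest of its group. No marker of these 3 lists was at or under the floor in any library. A lower level of a podocyte gene can come from fewer podocytes in the fraction or from less RNA per podocyte, and bulk libraries cannot tell these apart.

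**Figure D1:**
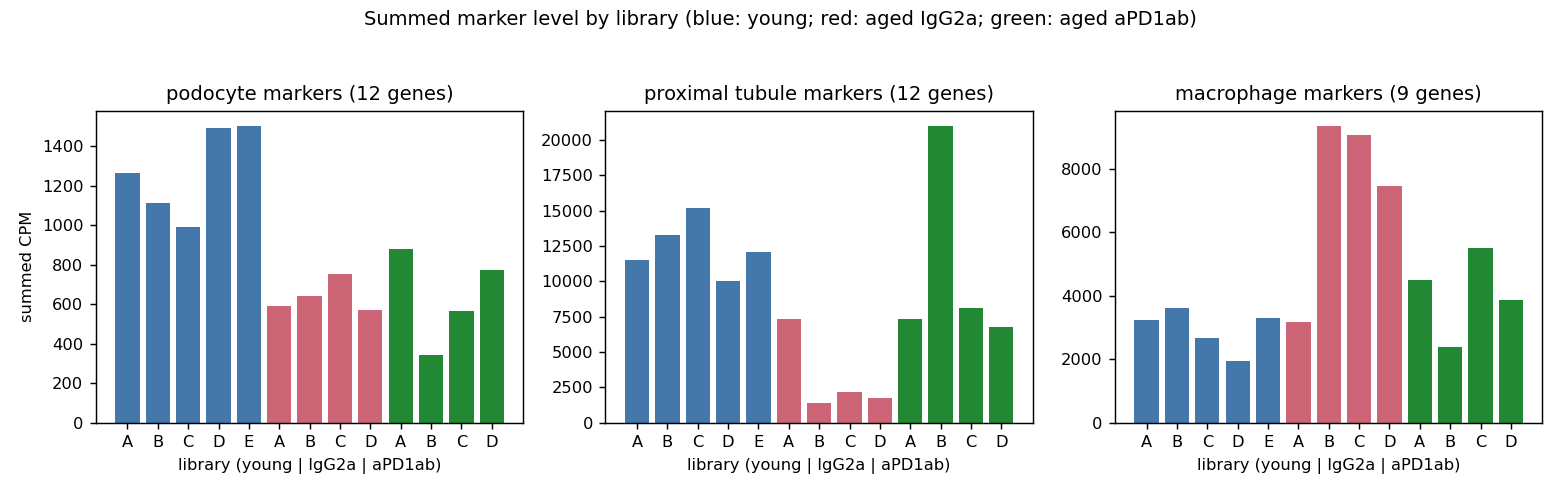
Summed level (CPM) of marker genes of podocytes (12 genes), proximal tubule (12 genes) and macrophages (9 genes) in each of the 13 libraries, as 1 bar a library with blue for young, red for aged IgG2a and green for aged aPD1ab. IgG2a library A has 7325 CPM of proximal tubule markers, against 1388 to 2165 CPM in the other 3 aged IgG2a libraries, and aPD1ab library B has 21010 CPM.

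Per kilobase of exon, the scale on which genes can be compared, Arhgdia was the most abundant member in young mice at 114 ± 8.11 CPM per kb (SD, n = 5). Actn4 followed at 52.3 ± 4.44 and Myh9 at 33.9 ± 2.49. Arhgap24 at 19.8 ± 2.86 and Synpo at 15.8 ± 3.32 CPM per kb did not differ beyond their spread. Myo1e stood at 10.7 ± 0.35. Nck2, Nck1 and Inf2 formed a low cluster of 3.73 ± 0.325, 3.48 ± 0.359 and 3.38 ± 0.453 CPM per kb, whose order could not be resolved, and Anln was the lowest at 0.682 ± 0.206. In aged IgG2a mice Synpo moved from rank 5 to rank 6, at 4.23 ± 0.604 CPM per kb (n = 4), where it no longer stood above Nck1 at 3.63 ± 0.344 by more than their spread. The 10 members also differed in how steady they were. Among young mice the coefficient of variation of the level was 3.30% for Myo1e and 30.2% for Anln, with the other 8 between 7.11% and 20.9%.

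**Figure D2:**
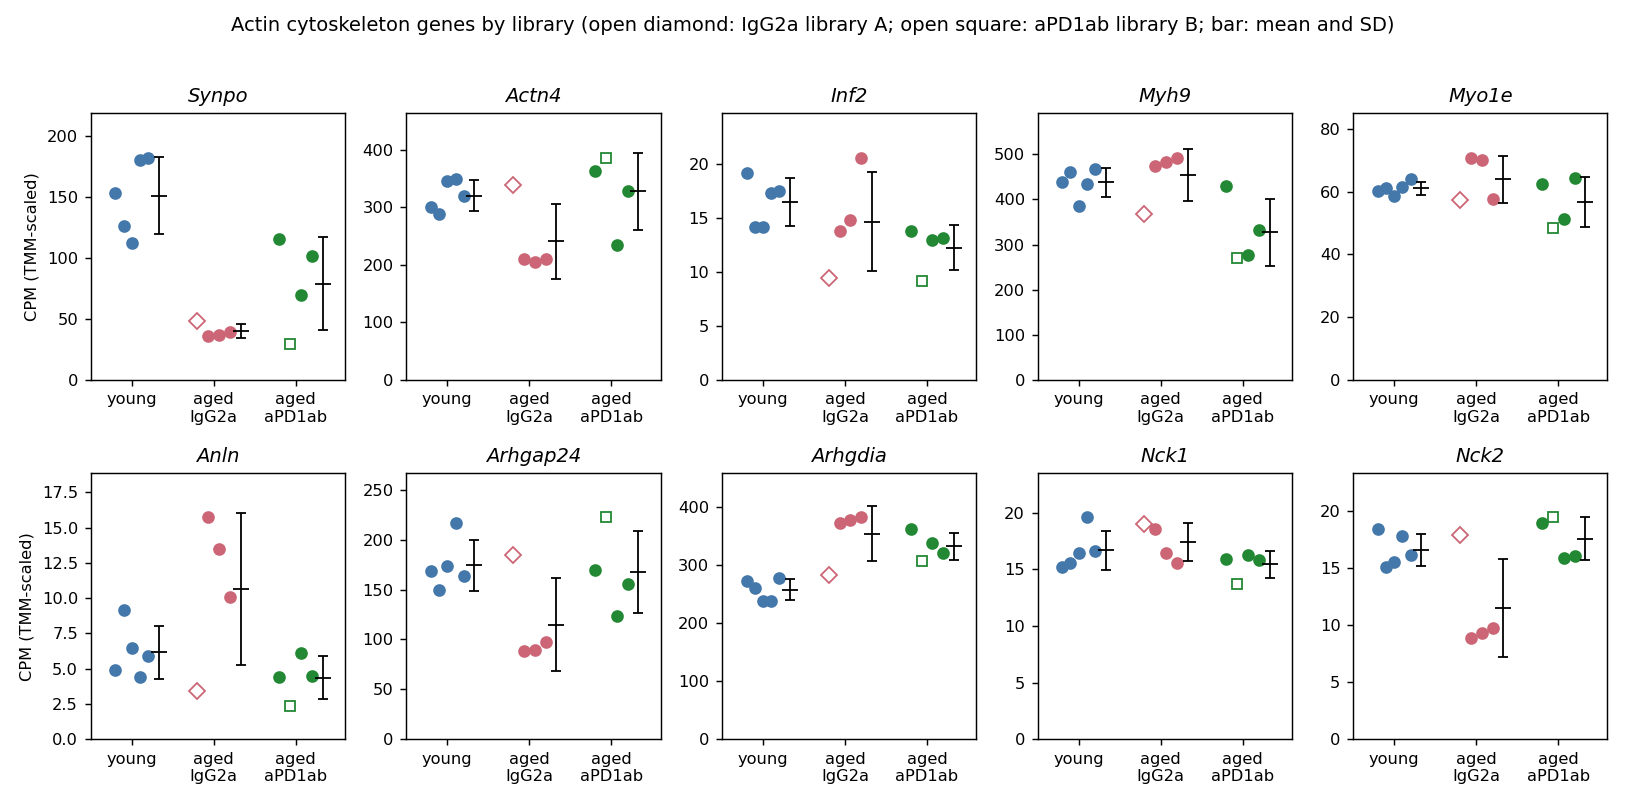
Level (CPM, from 0) of each of the 10 genes in every library, 1 panel a gene; points are libraries, the open diamond is IgG2a library A, the open square is aPD1ab library B, and the bar beside each group is its mean and SD. Synpo lies between 36.2 and 48.6 CPM in the 4 aged IgG2a libraries, below all 5 young libraries, and for Actn4, Arhgap24 and Nck2 the open diamond sits with the young libraries while the other 3 aged IgG2a libraries sit below them.

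The first comparison, aged IgG2a against young, asks how the actin genes stand in the aged podocyte fraction. Synpo fell and Arhgdia rose, and no other member passed the test while all libraries were kept. By edgeR's quasi-likelihood test at an adjusted p under 0.05, 1 of the 10 members was lower, where 8.38% of the 15953 genes tested were lower, and 1 was higher, where 9.05% were higher. Without IgG2a library A, 4 members were lower (23.5% of 16216 genes) and 2 were higher (22.1%). The median log2 fold change (log2FC) of the 10 members was 0.01 with the library and 0.06 without it, against 0.04 and -0.01 over all genes tested. Counting calls that were also over 2-fold, 1 member was lower (4.59% of genes) and 0 were higher (3.89%). At an unadjusted p under 0.05 there were 4 members and 36.2% of genes. The voom test of limma with quality weights called 4 members lower (22.2% of genes) and 3 higher (24.3%). The members did not move in 1 direction, since 5 of the 10 log2FC values were above 0.

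Synpo (ENSMUSG00000043079, chromosome 18, 60593973 to 60660142, minus strand) encodes synaptopodin, the actin-bundling protein of the foot process that also protects RhoA from degradation. Its levels in the 5 young libraries were 153.8, 126, 112, 181 and 182 CPM. In the 4 aged IgG2a libraries they were 48.6 (IgG2a library A), 36.2, 36.8 and 39.6 CPM. The groups did not overlap, and the highest aged IgG2a library held less than the lowest young one, as was the case for 9.74% of all genes tested. The mean fell from 151 ± 31.6 (SD, n = 5) to 40.3 ± 5.76 CPM (SD, n = 4), a log2FC of -1.84 (standard error, SE, 0.17, edgeR adjusted p = 0.00119), or 0.279 times the young level. Without IgG2a library A the value was -1.96 (edgeR adjusted p = 1.42e-05). Synpo was called in all 14 alternative settings, with values from -1.96 to -1.77. The defining podocyte markers moved with it: 8 of 12 were lower, 1 was higher, and their median log2FC was -1.58. Endothelial markers (6 of 9 lower, 0 higher, median -0.50) were also lower. The same held for mesangial and smooth muscle markers (4 of 8 lower, 0 higher, median -1.11). Nphs1, the gene of nephrin and so of the protein used for the sort, fell from 64.5 ± 16 (SD, n = 5) to 8.80 ± 7.18 CPM (SD, n = 4). The part of podocyte number in the lower Synpo level was not tested.

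Arhgdia (ENSMUSG00000025132, chromosome 11, 120578104 to 120581624, minus strand) encodes a GDP-dissociation inhibitor that keeps RhoA, Rac1 and Cdc42 inactive in the cytosol. The young libraries held 272, 261, 238, 239 and 278 CPM. The aged IgG2a libraries held 283 (IgG2a library A), 372, 378 and 382 CPM. All 4 aged values lay above all 5 young ones, although IgG2a library A did so by a narrow margin, and this direction without overlap was seen for 4.75% of genes tested. The log2FC was 0.53 (SE 0.14, edgeR adjusted p = 0.0332), or 1.44 times the young level. This call was fragile: leaving out any of the other 8 libraries raised the edgeR adjusted p to between 0.0579 and 0.0994, and leaving out IgG2a library A lowered it to 0.000461 at a log2FC of 0.61. Arhgdib, its relative in blood cells, rose from 71.7 ± 15.6 to 131 ± 50.3 CPM (log2FC 0.94, edgeR adjusted p = 0.0494), and all 9 macrophage markers rose, with a median log2FC of 1.37. Their part in the Arhgdia level was not tested.

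Actn4, Arhgap24 and Nck2 shared a pattern across the 13 libraries. Actn4 (ENSMUSG00000054808, chromosome 7, 28893248 to 28962340, minus strand) encodes the α-actinin that crosslinks foot process actin. It stood at 299.7, 288, 345, 350.0 and 319 CPM in young mice. In aged IgG2a mice it stood at 338 CPM in IgG2a library A and at 210.2, 205 and 211 CPM in the others. The latter 3 lay close together and below every young library, and IgG2a library A lay inside the young range.

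Arhgap24 (ENSMUSG00000057315, chromosome 5, 102481391 to 102897937, plus strand) encodes a GTPase-activating protein that shuts down Rac1 in podocytes. Young libraries held 169, 149, 173, 216 and 163 CPM. Aged IgG2a libraries held 184 CPM in IgG2a library A and 88.6, 89.2 and 97.0 CPM in the others. Nck2 (ENSMUSG00000066877, chromosome 1, 43444579 to 43570515, plus strand), the adaptor between phosphorylated nephrin and actin assembly, repeated this picture at a lower level. It held 18.4, 15.1, 15.6, 17.8 and 16.2 CPM in young mice, 18.0 CPM in IgG2a library A, and 8.91, 9.37 and 9.81 CPM in the other aged IgG2a libraries.

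With all libraries none of these 3 passed the test. The log2FC was -0.35 for Actn4 (SE 0.17, edgeR adjusted p = 0.160). It was -0.55 for Arhgap24 (SE 0.22, edgeR adjusted p = 0.110). For Nck2 it was -0.47 (SE 0.20, edgeR adjusted p = 0.117). Without IgG2a library A all 3 fell. In that set of libraries 4 members lay lower without overlap of the groups (27.4% of genes) and 3, Myh9, Anln and Arhgdia, lay higher (19.4%). Actn4 then had a log2FC of -0.57 (edgeR adjusted p = 0.00106), Nck2 one of -0.77 (0.000238) and Arhgap24 one of -0.87 (0.000229). Proximal tubule markers were lower as well: 10 of 12 with all libraries and all 12 without IgG2a library A, at medians of -1.86 and -2.65. The aged libraries with the most of them in their groups, IgG2a library A and aPD1ab library B, were also the highest there for Actn4, Arhgap24 and Nck2. Other libraries went the other way. Young library D had the lowest sum of these markers among the young (10030 CPM) but the highest Actn4 and Arhgap24. The aPD1ab library C had more of them (8128 CPM) than libraries A (7316 CPM) and D (6774 CPM). It was nevertheless the lowest of its group for all 3 genes. The part of tubular RNA in these levels was not tested. Actn4 shares 316 exonic bases with Capn12 on the opposite strand, but Capn12 reached at most 0.317 CPM, and no other member shares exonic bases with another gene.

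Of the 10 members, 8 were matched to a promoter in the RefSeq table of the GRCm38.p6 assembly as it was used here. Synpo and Arhgap24 were not matched, and their promoters were not examined. Whether RefSeq lists a promoter for Synpo or Arhgap24 was not established. The 250 bases upstream of the first listed start are shown for Actn4 and Nck2, which moved together, and for Nck1, the partner of Nck2 that did not move with it. Capitals mark the GC box, GGGCGG, on either strand. Actn4 lies at chr7:28962333-28962582 on the minus strand, Nck2 at chr1:43445501-43445750 on the plus strand and Nck1 at chr9:100546135-100546384 on the minus strand.
Actn4: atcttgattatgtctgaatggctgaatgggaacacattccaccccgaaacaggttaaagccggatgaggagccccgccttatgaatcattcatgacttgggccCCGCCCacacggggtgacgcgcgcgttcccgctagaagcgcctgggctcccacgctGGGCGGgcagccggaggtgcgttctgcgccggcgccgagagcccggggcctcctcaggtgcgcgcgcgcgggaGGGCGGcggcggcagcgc
Nck2: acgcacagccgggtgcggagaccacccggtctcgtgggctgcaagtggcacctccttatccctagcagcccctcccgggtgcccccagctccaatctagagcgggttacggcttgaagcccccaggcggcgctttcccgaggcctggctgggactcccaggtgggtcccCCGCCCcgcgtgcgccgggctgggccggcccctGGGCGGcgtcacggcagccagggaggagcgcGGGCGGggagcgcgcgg
Nck1: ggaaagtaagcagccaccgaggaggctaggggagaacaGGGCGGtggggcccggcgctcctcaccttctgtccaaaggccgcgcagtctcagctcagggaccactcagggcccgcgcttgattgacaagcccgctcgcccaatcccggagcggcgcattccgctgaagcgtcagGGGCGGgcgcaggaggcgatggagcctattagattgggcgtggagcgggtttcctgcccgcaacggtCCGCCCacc
Each of the 3 windows held 3 GC boxes, and the first listed starts of the other members held from 0 (Myo1e) to 5 (Inf2). Of all 32851 promoters of this length 32.7% held at least 1, and the share that held 3 was not counted. The table lists 1 further start for Nck1, whose window (chr9:100506857-100507106, minus strand) held 0 GC boxes and 2 CCAAT boxes, and 1 start each for Actn4 and Nck2. The printed window of Nck1 held 2 CCAAT boxes (CCAAT on either strand), Nck2 held 1 and Actn4 held none, against 33.8% of promoters with at least 1. No TATAAA was found on either strand in the 3 windows (12.4% of promoters held it). A CArG box, the site of serum response factor in many actin genes, was found by its letters in the promoter of Myo1e alone among the 8, starting 32 bases before the start, where 1.47% of promoters held one. These matches describe letters in the windows and not binding.

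Nck1 (ENSMUSG00000032475, chromosome 9, 100492293 to 100546134, minus strand) was steady. It held 15.2, 15.6, 16.4, 19.6 and 16.6 CPM in young mice and 19.0 (IgG2a library A), 18.6, 16.5 and 15.5 CPM in aged IgG2a mice. The log2FC was 0.12 (SE 0.11, edgeR adjusted p = 0.438), and the groups overlapped in full. Myo1e (ENSMUSG00000032220, chromosome 9, 70207350 to 70399766, plus strand), the class 1 myosin of the podocyte membrane, held 58.7 to 64.1 CPM in young and 57.3 to 70.8 CPM in aged IgG2a mice, with a log2FC of 0.13 (SE 0.10, edgeR adjusted p = 0.368).

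Myh9 (ENSMUSG00000022443, chromosome 15, 77760587 to 77842175, minus strand), the heavy chain of nonmuscle myosin IIA, held 439, 461, 386, 435 and 469 CPM in young mice. Aged IgG2a libraries held 368 (IgG2a library A), 475, 483 and 493 CPM. The 3 latter values lay just above all young ones and IgG2a library A below them, and the change passed the test neither with IgG2a library A (log2FC 0.12, edgeR adjusted p = 0.579) nor without it (0.20, edgeR adjusted p = 0.138). Inf2 (ENSMUSG00000037679, chromosome 12, 112588784 to 112615557, plus strand) held 14.2 to 19.1 CPM in young and 9.46 to 20.6 CPM in aged IgG2a mice. Its log2FC was -0.10 (SE 0.21, edgeR adjusted p = 0.746) and turned to 0.04 without IgG2a library A.

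Anln (ENSMUSG00000036777, chromosome 9, 22332012 to 22389188, minus strand) was the least abundant member. It held 4.89, 9.18, 6.50, 4.43 and 5.89 CPM in young mice. In aged IgG2a mice it held 3.40 CPM in IgG2a library A, lower than any young library, and 15.7, 13.5 and 10.1 CPM in the others, higher than any young library. With all 4 the log2FC was 0.86 (SE 0.40, edgeR adjusted p = 0.147), and without IgG2a library A Anln rose by 1.14 (SE 0.24, edgeR adjusted p = 0.00300). The 13 genes listed as partners of anillin in cytokinesis and division moved in the same direction: 12 of 13 were above 0, at a median log2FC of 0.73 (0.04 over all genes), but 0 passed the test with all libraries and 7 passed without IgG2a library A. Among them Mki67, a marker of cycling cells, had a log2FC of 0.87 (edgeR adjusted p = 0.140), and of 1.15 without IgG2a library A (edgeR adjusted p = 0.00715).

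**Figure D3:**
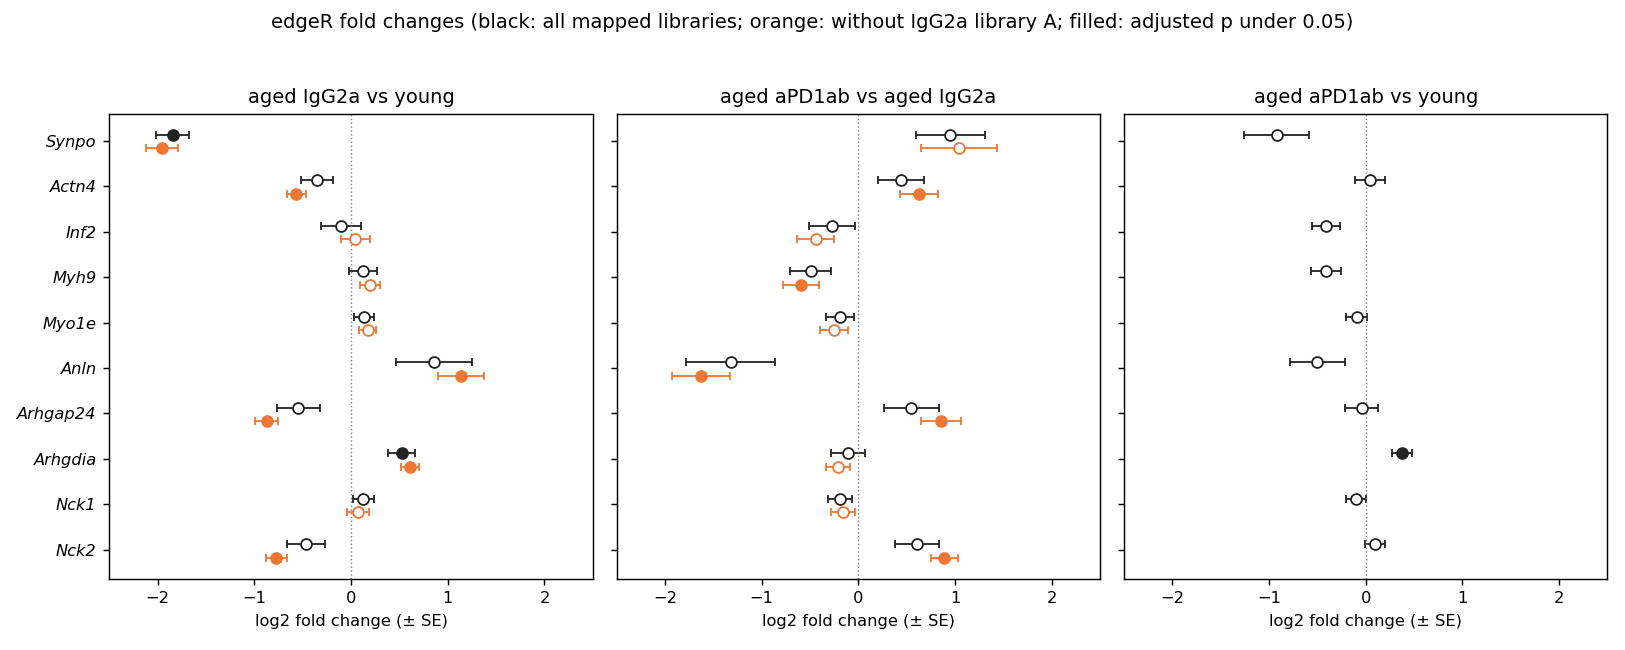
Log2 fold change (log2FC) with its standard error for the 10 genes in the 3 comparisons; black is the fit of all mapped libraries, orange the fit without IgG2a library A, and filled points have an edgeR adjusted p under 0.05. With all libraries only Synpo (-1.84) and Arhgdia (0.53 in aged IgG2a and 0.38 in aged aPD1ab, each against young) are filled, and without IgG2a library A there are 6 filled points in the first panel and 5 in the second.

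The second comparison, aged aPD1ab against aged IgG2a, asks whether blocking PD-1 altered these genes in aged mice. With all libraries 0 of the 10 members passed the edgeR test, as did 0 of all 15530 genes (0.00% higher and 0.00% lower). No member separated the groups without overlap either, where 7.25% of genes did so as higher and 4.73% as lower. At an unadjusted p under 0.05 there were 4 members (Synpo, Myh9, Anln and Nck2) and 28.0% of all genes, and the lowest adjusted p of any gene was 0.102. DESeq2 called 1 member lower, Anln (6.33% of genes), and 0 higher (8.95%). The voom test called 4 members higher (20.9%) and 2 lower (18.8%). Without IgG2a library A edgeR called 5 members: Actn4, Arhgap24 and Nck2 were higher, where 17.1% of 15770 genes were higher, and Myh9 and Anln were lower, where 13.2% were lower. Without overlap, the same 3 lay higher (24.8%), and Myh9, Anln and Arhgdia lay lower (18.5%). The median log2FC of the members was -0.15 with IgG2a library A and -0.18 without it, against -0.01 and 0.005 over all genes. The aged IgG2a libraries also served in the first comparison, so that the 2 sets of fold changes are not independent.

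Nck2 in the 4 aged aPD1ab libraries stood at 19.0, 19.5 (library B), 15.9 and 16.1 CPM, all within or just above the young range and above 3 of the 4 aged IgG2a libraries. Its log2FC against aged IgG2a was 0.61 (SE 0.23, edgeR adjusted p = 0.138), and it rose by 0.89 without IgG2a library A (SE 0.14, edgeR adjusted p = 0.00752). Arhgap24 stood at 169, 222, 124 and 156 CPM, with a log2FC of 0.55 (edgeR adjusted p = 0.236) that was 0.85 without IgG2a library A (edgeR adjusted p = 0.0193). Actn4 stood at 362, 386, 234 and 328 CPM, with values of 0.44 (edgeR adjusted p = 0.250) and 0.63 (edgeR adjusted p = 0.0420). Proximal tubule markers lay higher with aPD1ab in 12 of 12 cases, at a median log2FC of 1.74 with 0 called, and of 2.56 with 11 called without IgG2a library A, and their part in these 3 levels was not tested. For these 3 genes library B was the highest of the aPD1ab group and library C was the lowest, by a wide margin for Actn4 and Arhgap24.

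Synpo showed the widest spread of the members under aPD1ab, with a coefficient of variation of 48.6%. It stood at 116, 69.4 and 102 CPM in 3 libraries, all above the aged IgG2a libraries, and at 29.2 CPM in aPD1ab library B, below every aged IgG2a library. That library also had the lowest sum of podocyte markers of all 13 libraries, at 345 CPM. Against aged IgG2a, 9 of 12 podocyte markers lay higher and 3 lower, at a median log2FC of 0.45 with 0 called. Without IgG2a library A the median was 0.59, with 5 called higher and 1 lower. Their part in the Synpo level was not tested. The log2FC of Synpo against aged IgG2a was 0.95 (SE 0.35, edgeR adjusted p = 0.135). It was 1.04 without IgG2a library A (edgeR adjusted p = 0.0802), 1.22 without aPD1ab library B (edgeR adjusted p = 0.251) and 1.31 without both (edgeR adjusted p = 0.00275). The setting without both was added after the values were seen, and in it 3 members were higher (15.6% of 15527 genes) and 1 was lower (12.6%).

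The mean levels of Myh9 and Anln were lower with aPD1ab, although the groups overlapped. Myh9 stood at 430.0, 269, 276 and 332 CPM in the aPD1ab libraries, against 368 to 493 CPM with IgG2a, a log2FC of -0.49 (SE 0.21, edgeR adjusted p = 0.170). Without IgG2a library A Myh9 fell by 0.59 (edgeR adjusted p = 0.0430). Anln stood at 4.40, 2.40, 6.12 and 4.52 CPM, all within or below the young range, with a log2FC of -1.32 (SE 0.46, edgeR adjusted p = 0.127). It fell by 1.63 without IgG2a library A (SE 0.30, edgeR adjusted p = 0.00872), to 0.324 times the level with IgG2a, the largest change of the 10 members in this comparison. The partners of anillin lay lower in 12 of 13 cases, at a median of -0.95, with 0 passing the test with all libraries and 11 without IgG2a library A. Macrophage markers lay lower in all 9 cases with a median of -0.90, 0 passing with all libraries and 8 without IgG2a library A, and their part in the Anln level was not tested.

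The remaining 4 members passed the test neither with nor without IgG2a library A. The log2FC was -0.27 for Inf2, -0.19 for Myo1e, -0.11 for Arhgdia and -0.19 for Nck1, with edgeR adjusted p-values of 0.476, 0.409, 0.714 and 0.331. Arhgdia with aPD1ab stood at 361, 308, 338 and 321 CPM, between the young range and the 3 aged IgG2a libraries other than A.

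The third comparison set aged aPD1ab against young mice and did not involve IgG2a library A. Arhgdia rose, and it was the only member called: 1 of 10 was higher, where 12.4% of 15986 genes were higher, and 0 were lower, where 9.97% were lower. With a change over 2-fold as well, 0 members were called (2.10% of genes higher and 2.69% lower). At an unadjusted p under 0.05 there were 4 members and 36.9% of genes, and DESeq2 called 3 members lower (Synpo, Inf2 and Myh9, where 13.6% of genes were lower) and 1 higher (15.3%). The voom test called 2 members lower (Synpo and Myh9, 11.4% of genes) and 1 higher (13.5%). The log2FC of Arhgdia was 0.38 (SE 0.11, edgeR adjusted p = 0.0281), and all 4 aPD1ab libraries lay above all 5 young ones, as for 11.3% of genes. As in the first comparison the call was close to the threshold, and leaving out single libraries moved the edgeR adjusted p to between 0.0221 and 0.0676. Inf2 also separated without overlap, with 13.8, 9.15, 12.9 and 13.2 CPM under aPD1ab against 14.2 CPM or more in young mice, as did 10.6% of genes in this direction. Its log2FC of -0.41 missed the threshold (SE 0.15, edgeR adjusted p = 0.0670). Synpo had a log2FC of -0.92 (SE 0.34, edgeR adjusted p = 0.0742) and Myh9 one of -0.41 (edgeR adjusted p = 0.0836).

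Actn4, Arhgap24 and Nck2 stood within 0.10 log2 units of young in this comparison, at 0.04, -0.04 and 0.10, with standard errors of 0.16, 0.17 and 0.11 and edgeR adjusted p-values of 0.864, 0.884 and 0.550. Side by side, the 3 genes lay at -0.35, -0.55 and -0.47 in aged IgG2a against young and near 0 in aged aPD1ab against young. Synpo lay at -1.84 and -0.92. These pairs share the young libraries. Proximal tubule markers, whose median was -0.14 in aged aPD1ab against young and -1.86 in aged IgG2a against young, lay in the same order. So did podocyte markers, at medians of -1.07 (5 of 12 called lower, 0 higher) and -1.58 (8 of 12 called lower, 1 higher). The part of either in these levels was not tested.

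**Figure D4:**
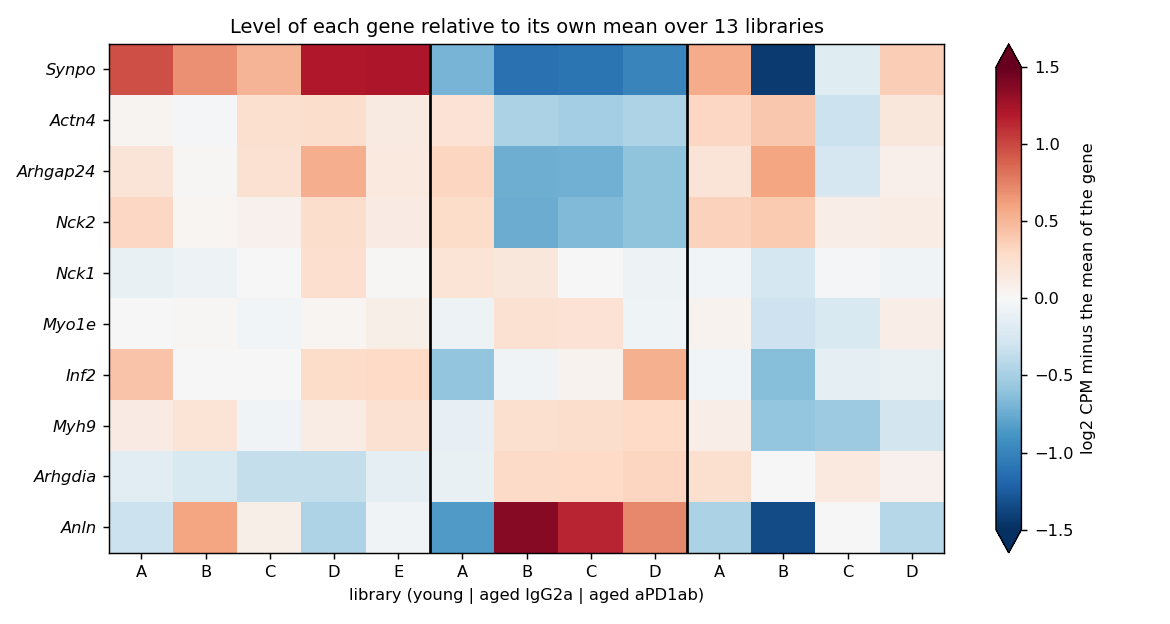
Log2 CPM of each gene minus its own mean over the 13 libraries, with genes in rows and libraries in columns (5 young, 4 aged IgG2a, 4 aged aPD1ab, split by lines), red above and blue below the mean. Actn4, Arhgap24 and Nck2 are blue in IgG2a libraries B, C and D and not in A, where Anln is blue while it is red in the other 3.

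The likeness of the patterns was measured as the root mean square difference of centred log2 CPM over the 13 libraries, as a description. The closest pairs of members were Myo1e and Nck1 (0.149), Actn4 and Arhgap24 (0.156), Arhgap24 and Nck2 (0.158), and Actn4 and Nck2 (0.175). Both Myo1e and Nck1 were nearly flat, with spreads of 0.148 and 0.135 on the same scale. Synpo and Anln were farthest apart, at 1.30. Over 16330 genes, those nearest to Synpo were Astn2 (0.203), Angptl2 (0.279) and Podxl (0.281), the last a sialoprotein of the podocyte surface. Among those nearest to Anln were Espl1 (0.200), the protease that parts sister chromatids, and E2f8 (0.223), a repressor of the cell cycle. Nearest to Nck2 were Uqcrc2 (0.109), Sdha (0.111) and Ptges2 (0.115), the former pair being subunits of the mitochondrial respiratory chain. Nearest to Arhgap24 were Lad1 (0.0752), Arhgef5 (0.112) and Camsap3 (0.113). Nearest to Inf2 were Atp2a3 (0.136), Kank3 (0.153) and Egfl7 (0.154), the last a secreted protein of endothelial cells.

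Ratios of counts within a library do not depend on library scaling, and 5 were compared between groups by two-sided exact permutation tests, adjusted over the 15 comparisons. None passed, the lowest adjusted p being 0.119, and groups of 4 and 4 cannot give a p below 0.0286, nor groups of 5 and 4 one below 0.0159. The log2 ratio of Nck1 to Nck2 was -0.28, 0.04, 0.08, 0.13 and 0.04 in young libraries. It was 0.08 in IgG2a library A and 1.06, 0.81 and 0.66 in the other aged IgG2a libraries, and -0.25, -0.51, 0.03 and -0.02 with aPD1ab. In 3 of the 4 aged IgG2a libraries the ratio of Nck1 to Nck2 counts thus lay above that of every young and aPD1ab library. The difference between aged IgG2a and young was 0.65 (exact permutation p = 0.0317, n = 4 and 5), and between aPD1ab and IgG2a it was -0.84 (exact permutation p = 0.0286, n = 4 and 4), both with an adjusted p of 0.119.

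Actn4 relative to Actn1, its more widely expressed relative, had a log2 ratio of 3.16 ± 0.215 in young (SD, n = 5), 2.53 ± 0.333 in aged IgG2a (n = 4) and 3.44 ± 0.323 in aged aPD1ab libraries (n = 4), with adjusted p-values of 0.119 for IgG2a against young and for aPD1ab against IgG2a by the exact permutation test. Synpo relative to Nphs1 was tight in young mice, at 1.14 to 1.37, and equally so in IgG2a library A at 1.33. It was 2.98, 2.37 and 3.25 in the other 3 aged IgG2a libraries and 1.25 to 1.94 with aPD1ab. In those 3 libraries the ratio of Synpo counts to Nphs1 counts was higher than in any young library. The difference between aged IgG2a and young was 1.24 (exact permutation p = 0.0476, adjusted p = 0.119). Myh9 over Myh10 and Arhgdia over Arhgdib did not pass the unadjusted threshold in any comparison with all libraries, their lowest exact permutation p being 0.114. Arhgdia over Arhgdib differed by -0.57 between aged IgG2a and young without IgG2a library A (exact permutation p = 0.0357, the smallest that 3 and 5 libraries allow, adjusted p = 0.0857), and by -0.34 (exact permutation p = 0.190) with it. The same p was reached without that library by Actn4 over Actn1 (-0.78), Nck1 over Nck2 (0.84) and Synpo over Nphs1 (1.62), and no ratio had an adjusted p under 0.0857.

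**Figure D5:**
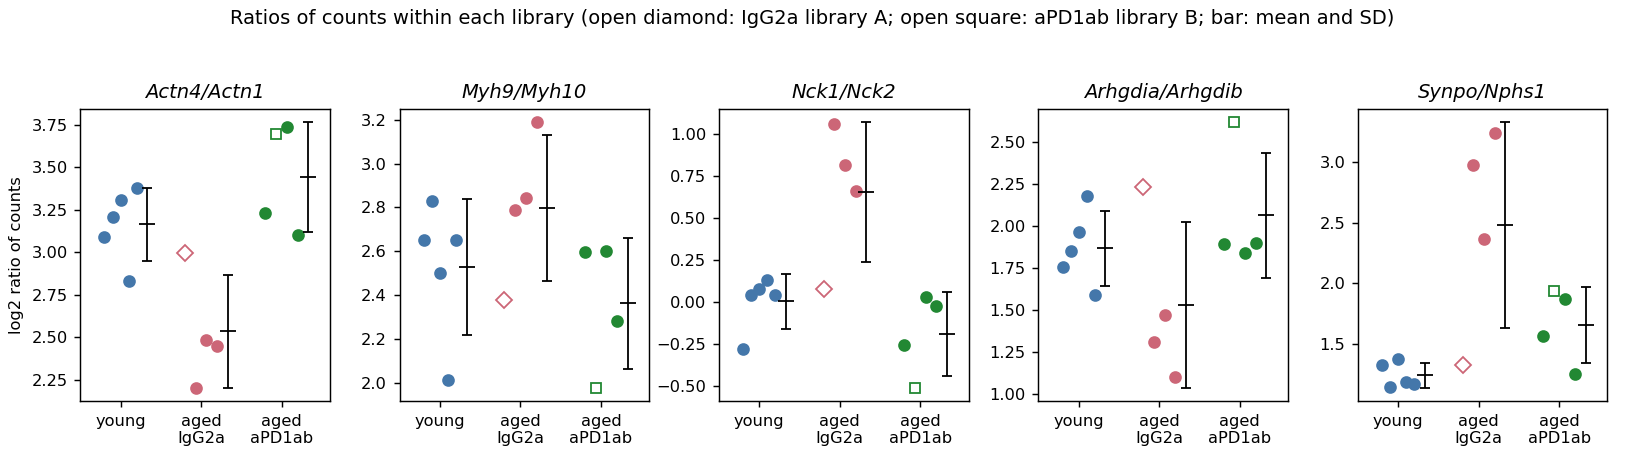
Log2 ratio of the counts of 2 genes within each library, 1 panel a pair; points are libraries, the open diamond is IgG2a library A, the open square aPD1ab library B, and bars are the mean and SD of the group. For Nck1 over Nck2, 3 aged IgG2a libraries lie between 0.66 and 1.06 and IgG2a library A lies at 0.08 with the young.

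Around the 10 members, 6 lists of related genes were counted, all against the medians of all genes of 0.04 (aged IgG2a against young) and 0.02 (aged aPD1ab against young). Among genes of filaments and bundling, 11 of 30 rose and 3 fell in aged IgG2a mice, with a median log2FC of 0.48, where 9.05% of all genes rose and 8.38% fell. Actb, the cytoplasmic β-actin, rose from 1239 ± 195 to 2039 ± 387 CPM (log2FC 0.79, edgeR adjusted p = 0.0326), and Tmsb4x, the actin monomer buffer thymosin β4, rose from 763 ± 148 to 1540 ± 581 CPM (1.09, edgeR adjusted p = 0.0374). The other cytoplasmic actin, Actg1, had a value of 0.39 (edgeR adjusted p = 0.0901). With IgG2a library A left out, 19 of the 30 rose and 7 fell, at a median of 0.60, where 22.1% of all genes rose and 23.5% fell. Of the links from the slit diaphragm to actin, 8 of 20 tested passed as lower and 1 as higher with all libraries, at a median of -0.50. Podxl fell by 1.56 (edgeR adjusted p = 0.00269), Nphs1 by 2.80 (edgeR adjusted p = 0.00833) and Slc9a3r1, a scaffold that links podocalyxin to ezrin, by 0.50 (edgeR adjusted p = 0.0460). Ezr itself had a value of -0.11 (edgeR adjusted p = 0.669). With IgG2a library A left out, 11 of these links were lower and 2 higher, at a median of -0.51.

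The other lists were mixed in aged IgG2a against young, and more of their genes passed without IgG2a library A. Of the formins and nucleation factors 3 of 23 were higher and 3 lower with all libraries. Nckap1l, the subunit of the WAVE complex found in blood cells, rose by 1.03 (edgeR adjusted p = 0.0476). Nckap1, of the same list, fell by 0.80 (edgeR adjusted p = 0.0411). With IgG2a library A left out, 15 of this list were higher and 7 lower, where 22.1% of all genes were higher and 23.5% lower. Of the myosins 2 of 18 tested were higher and 2 lower with all libraries, against 6 and 5 without IgG2a library A. Of the focal adhesion links 1 of 11 was higher and 2 were lower, against 2 higher and 7 lower without IgG2a library A. Tns1 had a value of -0.68 with all libraries (edgeR adjusted p = 0.0511). Macrophage markers rose in the same libraries, as given above, and their part in the levels of the actin genes and of Nckap1l was not tested.

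In aged aPD1ab against aged IgG2a none of the 6 lists had a gene past the threshold with all libraries. Medians were -0.37 for filaments and bundling, -0.48 for formins and nucleation factors and 0.09 for slit diaphragm links. Without IgG2a library A, 13 of 30 filament genes and 12 of 23 formins and nucleation factors were lower, and 3 of each list were higher, where 13.2% of all genes were lower and 17.1% higher. Nckap1l then fell by 1.34 (edgeR adjusted p = 0.0130) and Wasf2 by 0.94 (edgeR adjusted p = 0.00778), while Ezr rose by 0.71 (edgeR adjusted p = 0.0261). Actb had a value of -0.53 (edgeR adjusted p = 0.0559). In aged aPD1ab against young, 4 of 30 filament genes were higher and 0 lower, 6 of 20 slit diaphragm links were lower and 0 higher, and 3 of 13 partners of anillin were lower and 0 higher, where 12.4% of all genes were higher and 9.97% lower.

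The 2 aged libraries that stood apart were also extreme for the members. IgG2a library A lay outside the range of the other 3 aged IgG2a libraries for all 10 members, as it did for 76.7% of 16330 genes, and inside the young range for 4 of them (Actn4, Arhgap24, Nck1 and Nck2), against 49.6% of genes. The aPD1ab library B lay outside the range of the other 3 aPD1ab libraries for all 10 members, as for 65% of genes, and inside the young range for 0, against 30.3% of genes. In the other 6 aged libraries between 1 and 5 members lay outside the range of their group, against 33.7% to 52.5% of genes.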

How the data were processed

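RNA of the podocyte fraction was sequenced by the study from 5 young, 5 aged IgG2a and 5 aged aPD1ab mice. The authors deposited 1 table of read counts per gene (Ensembl identifiers), not normalized, and the submitters' processing notes name HISAT2, featureCounts, GRCm38 and mm10. The strand setting is not given in the sources used here. Numbers printed beside the points of a published principal component plot tie 13 columns to a group, and 2 further columns were not used. The columns carry no replicate number. Symbols and exon lengths came from GENCODE M21 (GRCm38), which held 45229 of the 46078 genes. No batch is named in the labels. Libraries held 19912969 to 32717100 counts, and floors cover counting error only.

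Counts were fitted with edgeR 4.0.16 in R 4.3.3 (robust quasi-likelihood, TMM, filterByExpr, each pair of groups alone), with Benjamini-Hochberg adjustment over all genes tested and a call at an adjusted p under 0.05. CPM are TMM-scaled, and log2 CPM used a prior count of 2. Alternatives were DESeq2 1.42.0 (size factors, and its own test), limma 3.58.1 voom with quality weights, no filter, 1 fit of all 3 groups, a 2-fold rule, and each library left out in turn. The fit was tested on simulated data. Ratios were tested by exact permutation in scipy 1.17.1 on log2 counts with 0.5 added. Members, gene lists and tests were chosen with earlier results of these data known, and Synpo and Actn4 are genes the study itself singled out in these libraries, so that none of this is independent support. Named genes are all members, the 3 most abundant genes of each list, the partners of the ratios, and Nckap1. Of these the text gives a subset chosen after the values were seen. The 3 genes nearest to a member in pattern are named as well. Promoters came from RefSeq (GRCm38.p6). Replicates are separate mice. One list of related genes and 1 gene near a member in pattern are not reported here.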

Additional observations from a re-analysis of the deposited data

Results flagged for a closer look

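Of 45 combinations of a gene or ratio with a group of 4 or 5 libraries, 9 held a library farther from the others than the 95% limit of Dixon's test, and chance alone marks about 1 in 20. IgG2a library A accounted for 5 of the 9. Its log2 CPM was 8.40 for Actn4, against 7.68 to 7.72 in the other 3. It was 7.53 for Arhgap24, against 6.47 to 6.60, and 4.17 for Nck2, against 3.17 to 3.31. It was 8.52 for Myh9, against 8.89 to 8.94, and 8.14 for Arhgdia, against 8.54 to 8.58.

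In the aged aPD1ab group library B lay apart for Inf2, at a log2 CPM of 3.21 against 3.70 to 3.79, and for Nck1, at 3.78 against 3.99 to 4.03. It also lay apart for the log2 ratio of Arhgdia to Arhgdib, at 2.62 against 1.84 to 1.90. In young mice library A lay apart for the log2 ratio of Nck1 to Nck2, at -0.28 against 0.04 to 0.13. These libraries are the ones for which marker sums of other cell types are given in the report, apart from young library A, and the part of those cells was not tested.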

How the results depend on the processing

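No paired analysis was possible because the columns carry no replicate number. In aged IgG2a against young, where 1 member was higher and 1 lower, the count higher was 0 with no filter (3.18% of genes), 3 with voom (24.3%) and 0 with the 2-fold rule (3.89%), and the count lower was 4 with voom (22.2%). Leaving out single libraries gave 0 to 2 higher and 1 to 4 lower, with IgG2a library A giving the high ends (22.1% and 23.5% of genes) and each other library losing Arhgdia. Inf2 lay between -0.33 and 0.043 (log2 fold change) and was above 0 only without IgG2a library A. In aged aPD1ab against aged IgG2a, where 0 members were called, voom called 4 higher (20.9%) and 2 lower (18.8%), and DESeq2 (6.33%) and the fit of all 3 groups (6.14%) each called 1 lower, Anln. Leaving out single libraries gave 0 to 3 higher and 0 to 2 lower, all from the fit without IgG2a library A (17.1% and 13.2%). Without both that library and aPD1ab library B, a setting added after the data were seen, 3 were higher (15.6%) and 1 lower (12.6%), while Actn4 (edgeR adjusted p = 0.0561) and Myh9 (0.0644) no longer passed. In aged aPD1ab against young, where 1 member was higher, the count was 0 with no filter (5.94%), with the fit of all 3 groups (9.13%) and with the 2-fold rule (2.10%). The count lower was 0, but 3 with DESeq2 (13.6%) and 2 with voom (11.4%). Leaving out single libraries gave 0 to 1 higher and 0 to 2 lower, the latter without aPD1ab libraries A (2, where 10.7% of genes were lower) and B (1, where 10.5% were). Actn4 lay between -0.045 and 0.17, below 0 without aPD1ab library A or B, and Arhgap24 between -0.21 and 0.077, above 0 without young library D or aPD1ab library C. The cause of these shifts was not tested. No ratio passed under any pseudocount or left-out library that was run. Groups of 4 or 5 mice limit what can be called, and depth limits Anln most, at 59 to 385 counts a library.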
